A study of Mus musculus with 4 samples.

Results

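The cytokine genes Tslp, Il33 and Il25 and the receptor-chain genes Crlf2, Il7r and Il17rb were examined in mouse skin treated with MC903 or vehicle. These 6 genes were chosen by name, with earlier results of these data known, from 18193 genes measured. The array annotation assigned 7 of 34945 named probe sets to them, 2 to Il7r and 1 to each of the others. All samples were skin of female wild type BALB/c mice, whose age is not stated in the labels. The mice of both groups had been sensitised with ovalbumin, an egg-white protein, put on the ear together with MC903, so the vehicle mice had met MC903 before. After a first ovalbumin challenge by mouth the skin was treated either with MC903 (calcipotriol, a vitamin D analogue) or with its solvent ethanol, a further oral challenge followed, and RNA was isolated from skin. The site sampled, the dose and the time after the last challenge are not stated in the labels. Each group had 2 arrays. Whether these stand for different mice is not stated, so every p-value speaks of the spread among these arrays alone, and that spread may be technical.

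TSLP, IL-33 and IL-25 are the epithelial cytokines that start type 2 immunity at barriers such as skin. TSLP binds CRLF2, its specific chain, together with the IL-7 receptor alpha chain encoded by Il7r, and signals through JAK kinases and STAT5. IL-33 is a nuclear cytokine of the IL-1 family that acts through ST2 (gene Il1rl1, not analysed here) with IL1RAP, and IL-25, a cytokine of the IL-17 family, acts through IL17RB paired with IL17RA. Dendritic cells, group 2 innate lymphoid cells, T cells, mast cells and basophils are known responders. In mouse skin, topical MC903 is a standard way to induce TSLP in keratinocytes through the vitamin D receptor.

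The sequences just before the transcript starts of Il33, Il7r and Il17rb, as listed by RefSeq (GRCm38.p6), are shown, since in these genes the treated and vehicle signals did not overlap. No such window was examined for Tslp or Il25, whose signals did not overlap either. Each window has the 250 bases before a start, 5′ to 3′ in the direction of the gene, and Il33 has 2 listed starts. Capitals mark matches on either strand to TGANTCA (AP-1, in 6.75% of the 32851 windows of all genes), TTCNNNGAA (STAT, 7.02%), GGGANNTCC (NF-kB, 3.59%), AGGTCA (a half-site of the vitamin D receptor, in 4607 of the windows) or TATAAA (a core promoter element, 12.4%).
Il33 first start, chr19:29924863-29925112, plus strand: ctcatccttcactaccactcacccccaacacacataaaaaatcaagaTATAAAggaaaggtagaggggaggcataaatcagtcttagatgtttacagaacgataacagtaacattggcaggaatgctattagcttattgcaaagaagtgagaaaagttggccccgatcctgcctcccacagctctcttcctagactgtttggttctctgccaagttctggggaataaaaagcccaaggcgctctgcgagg
Il33 second start, chr19:29945540-29945789, plus strand: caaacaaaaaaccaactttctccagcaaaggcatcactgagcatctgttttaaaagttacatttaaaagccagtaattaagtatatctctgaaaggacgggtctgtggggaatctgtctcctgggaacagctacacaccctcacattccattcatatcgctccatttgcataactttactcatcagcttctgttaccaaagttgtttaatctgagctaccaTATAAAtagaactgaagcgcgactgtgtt
Il7r, chr15:9529877-9530126, minus strand: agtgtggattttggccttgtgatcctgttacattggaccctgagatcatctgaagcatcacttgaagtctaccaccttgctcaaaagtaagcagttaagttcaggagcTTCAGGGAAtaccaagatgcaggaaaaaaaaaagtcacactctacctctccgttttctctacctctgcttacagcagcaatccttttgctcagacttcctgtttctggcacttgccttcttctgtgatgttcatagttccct
Il17rb, chr14:30008897-30009146, minus strand: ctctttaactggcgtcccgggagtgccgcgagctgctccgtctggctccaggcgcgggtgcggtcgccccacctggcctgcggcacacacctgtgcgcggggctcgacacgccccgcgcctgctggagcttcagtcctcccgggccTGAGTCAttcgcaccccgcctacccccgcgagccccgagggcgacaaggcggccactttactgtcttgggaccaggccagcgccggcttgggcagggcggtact
The matches were the core promoter letters in each Il33 window, beginning 203 bases before the first start and 29 before the second, a STAT match 142 bases before the Il7r start, and an AP-1 match 104 bases before the Il17rb start. None of the 4 windows held the vitamin D receptor half-site or the NF-kB letters. A match is a description of the letters only, and 3′ expression arrays read the end of a transcript, so the Il33 signal does not show which start was used.

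The keratins Krt5 (27480.0 to 29872), Krt14 (30609 to 39813) and Krt10 (39062 to 45067) were among the brightest genes on every array, and the collagen gene Col1a1 stood between 745 and 1345. Signals are scaled intensities with a trimmed mean of 500 on each array. The TrpnX probe sets, made for bacterial transcripts, gave 1.55 to 24.0 and serve as a guide to background. Over all genes the median difference, MC903 minus vehicle, was -0.04 on the log2(signal + 16) scale. This scale is used for every difference given here, and it understates the differences of dim genes.

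Among these genes Tslp and Il7r stood furthest above vehicle, Il33 was moderately higher in both MC903 arrays, Il17rb was lower in both, Crlf2 overlapped, and Il25 was within the background. Both MC903 arrays were above both vehicle arrays for 4 of the 6 genes, Il25 included, and below them for 1, against 21.6% and 28.2% of all genes. No gene of the 6 passed limma's test over all genes (adjusted p below 0.05), and neither did any other gene (0%). With a prior variance that follows the signal, limma called 0 of the 6, and 0.923% of all genes (0.539% higher and 0.385% lower). Without adjustment, Tslp, Il7r and Il33 were higher at a p below 0.05, as were 6.82% of all genes, and 0 of the 6 were lower (8.39% of all genes, 15.2% in either direction). For 2 arrays against 2, the smallest two-sided p of an exact permutation test is 0.333.

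**Figure D1:**
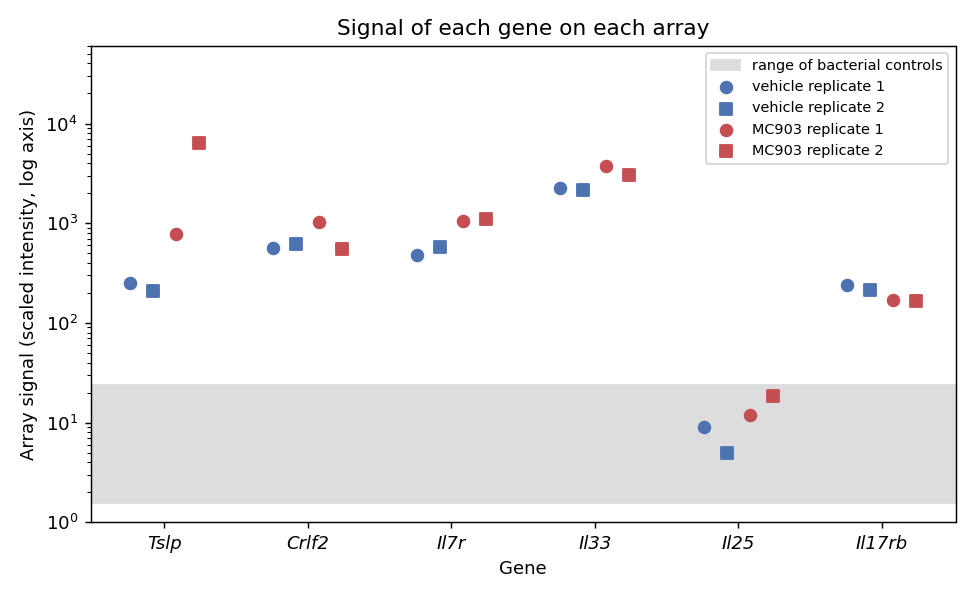
Array signal of the 6 genes on a log axis, with 1 point per array, vehicle in blue and MC903 in red, circles for replicate 1 and squares for replicate 2. The grey band spans the bacterial TrpnX probe sets (1.55 to 24.0). Il25 lies inside it on every array, and the MC903 points of Tslp are 8.12-fold apart.

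Tslp, the ligand, had signals of 253 and 209 on the vehicle arrays against 777 and 6313 on the MC903 arrays. The groups did not overlap, the MC903 arrays standing 3.07 to 30.3 times above the vehicle arrays in the 4 pairings, and Tslp alone among the 6 genes was at least 2-fold higher in every pairing on the log2(signal + 16) scale (1.16% of all genes were, and 0.813% were at least 2-fold lower). The difference was 3.19 ± 1.03 (SE, n = 2 per group; 95% interval 0.40 to 5.98; limma, adjusted p = 0.294). Its size was set by the MC903 arrays, at 1.69 without MC903 replicate 2 and 4.69 without MC903 replicate 1. The direction was the same with either array.

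Between the MC903 arrays, Tslp was 8.12 times higher in replicate 2. On the log2(signal + 16) scale this was the highest excess of replicate 2 over replicate 1 among 18193 genes, also after quantile normalization and with 64 added in place of 16, and it ranked 180 with 1 added. In vehicle, replicate 2 minus replicate 1 was -0.26 for Tslp on that scale. The 4 other genes above background did not share that gap: MC903 replicate 2 relative to replicate 1 was 0.541-fold for Crlf2, 0.815-fold for Il33, 0.989-fold for Il17rb and 1.04-fold for Il7r. Marker lists that were brighter in MC903 replicate 2 than in replicate 1 included skeletal muscle (5 of 5 genes, summed signals 7376 in replicate 1 and 24836 in replicate 2, against 29279 and 15402 in vehicle) and adipocytes (4 of 4, summed signals 2832 and 5333, against 2309.7 and 1941 in vehicle). Suprabasal keratinocyte markers were brighter there for 6 of 7, with summed signals of 142765 and 170553 against 123263 and 117748 in vehicle. Basal keratinocyte markers, from the layer in which TSLP can be made, summed to 88743 and 86083 against 80745 and 80963 in vehicle. Of these 6 markers, 3 were higher in both MC903 arrays and 3 lower. The part of these differences in the Tslp values was not tested, and in bulk tissue more cells of a type and more RNA per cell cannot be told apart.

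**Figure D2:**
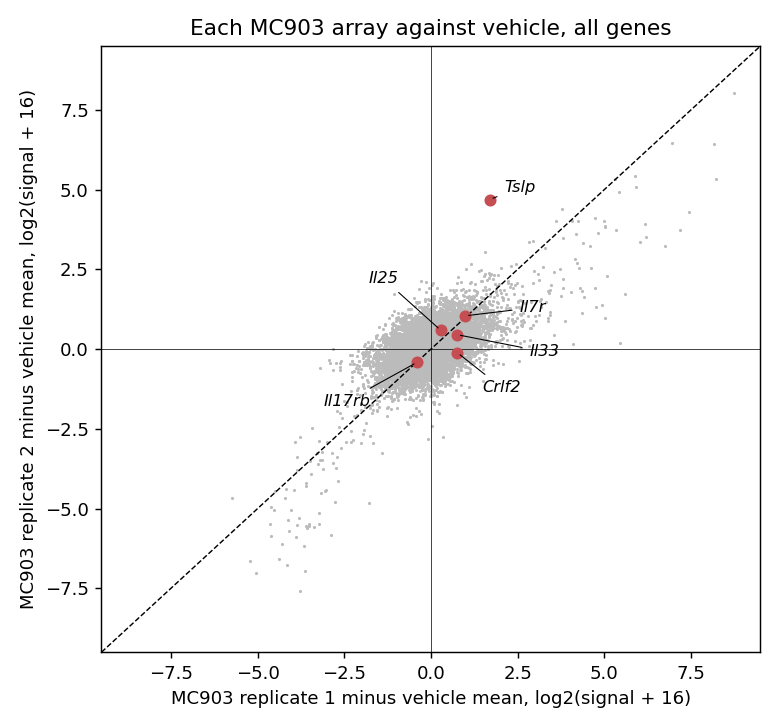
Difference from the vehicle mean on MC903 replicate 1 (horizontal) and replicate 2 (vertical), both on the log2(signal + 16) scale, for all 18193 genes in grey and the 6 genes in red. Points on the dashed line have equal differences on both arrays. Tslp (1.69 and 4.69) lies well above the line, Crlf2 (0.76 and -0.11) below it, and Il7r (0.98 and 1.04) near it.

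Crlf2, which encodes the chain that gives the TSLP receptor its specificity, stood at 569 and 623 on the vehicle arrays against 1018 and 551 on the MC903 arrays. One MC903 array was above both vehicle arrays and the other below both, so the groups overlapped. The difference of 0.32 ± 0.33 (SE, n = 2 per group; 95% interval -0.58 to 1.22; limma, adjusted p = 0.681) became 0.76 without MC903 replicate 2 and turned to -0.11 without MC903 replicate 1. The array with the higher Crlf2 was thus the one with the lower Tslp.

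Il7r, whose product serves both the TSLP and the IL-7 receptor, stood at 478 and 579.6 on the vehicle arrays against 1055 and 1100.1 on the MC903 arrays. The groups were apart and the MC903 arrays nearly equal. The difference was 1.01 ± 0.18 (SE, n = 2 per group; 95% interval 0.54 to 1.49), with an adjusted p of 0.186 by limma and of 0.0617 when the prior variance followed the signal. By unadjusted p, Il7r ranked 356 of 18193 genes, ahead of Il33 (1738) and Tslp (2056). Its second probe set had signals of 234 and 283 on the vehicle arrays against 564 and 630.1 on the MC903 arrays, a difference of 1.16 ± 0.19 (SE, limma on single probe sets, adjusted p = 0.244), so both probe sets gave about the same size. When the dimmest 50% of genes were left out, Il7r passed the threshold (limma, adjusted p = 0.0483). It was then among 101 genes called higher, beside 89 called lower, of 9096 tested.

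T cells and innate lymphoid cells carry IL7R, and T cell markers were higher alongside it. Of 7 T cell markers measured, 6 were higher in both MC903 arrays, as were 21.6% of all genes. The 7 markers had summed signals of 785 and 917 on the vehicle arrays against 1661 and 1630.2 on the MC903 arrays. The list's medians on the MC903 arrays were 0.87 and 0.97, beside 0.98 and 1.04 for Il7r. Single T cell markers were scattered, from -0.56 (Cd8a) to 1.51 (Cd3d) on MC903 replicate 1. On replicate 2 they ran from 0.45 (Cd3g) to 1.61 (Cd4). The 0.97 was the value of Cd8a, the marker that overlapped between groups. Cd4 (10.3 and 12.8 in vehicle, 18.0 and 67.9 in MC903) was above the background on MC903 replicate 2 only. The medians were 0.55 and 0.34 for genes of group 2 lymphoid cells, 1.87 and 0.56 for macrophage markers, and 0.92 and 0.19 for dendritic cell markers. The part of any of these cells in the Il7r signal was not tested. Il7, the other cytokine that binds this chain, was lower in both MC903 arrays, at 372 and 408 in vehicle and 272 and 285 in MC903 (-0.46 ± 0.16, SE, n = 2 per group; limma, adjusted p = 0.307).

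**Figure D3:**
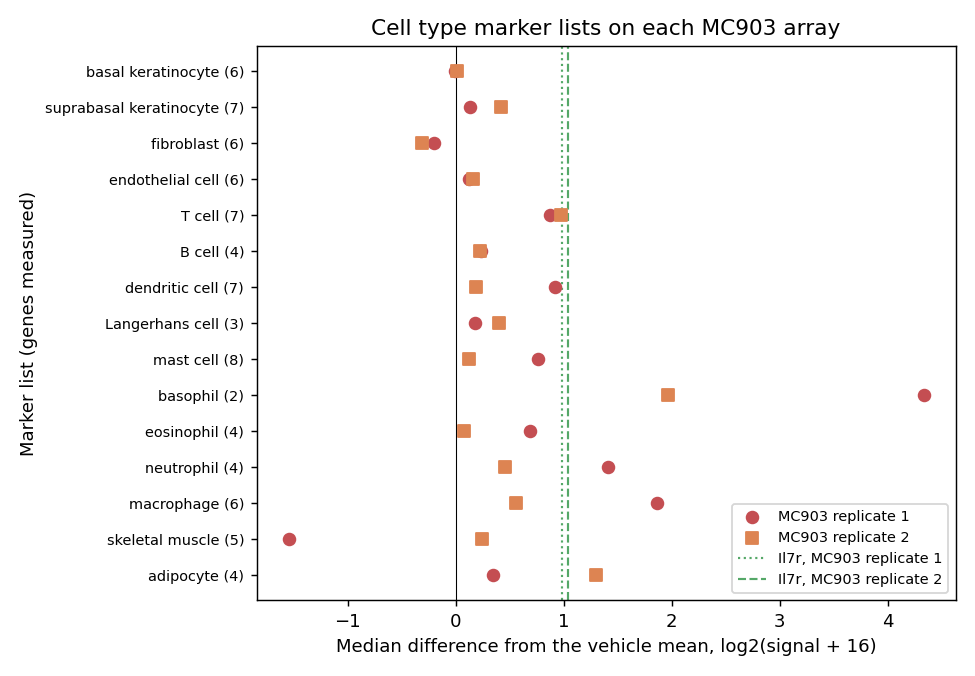
Median difference from the vehicle mean, log2(signal + 16), of each cell type marker list on MC903 replicate 1 (circles) and replicate 2 (squares), with the number of genes measured in brackets. Vertical green lines mark Il7r on the same arrays (0.98 and 1.04). The T cell median (0.87 and 0.97) lies near them on both arrays, though single T cell markers were scattered. The dendritic cell median (0.92 and 0.19) lies near them on replicate 1.

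Il33 stood at 2249.5 and 2158 on the vehicle arrays against 3708 and 3023 on the MC903 arrays, the vehicle arrays being nearly equal. The MC903 arrays were 1.34 to 1.72 times above the vehicle arrays, a difference of 0.60 ± 0.18 (SE, n = 2 per group; 95% interval 0.11 to 1.09; limma, adjusted p = 0.275). The difference was 0.75 without MC903 replicate 2 and 0.45 without MC903 replicate 1. In skin IL-33 is made by keratinocytes, fibroblasts and endothelial cells. Basal keratinocyte markers had a median difference of 0.00 over 6 genes (3 higher in both MC903 arrays and 3 lower). For suprabasal keratinocytes it was 0.30 over 7 (4 higher and 0 lower). For endothelial cells it was 0.14 over 6 (3 higher and 1 lower), and for fibroblasts -0.22 over 6 (0 higher and 4 lower). Of all genes, 21.6% were higher and 28.2% lower. The part of these cells in the Il33 values was not tested.

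Il25 gave 9.04 and 4.90 in vehicle and 11.8 and 18.4 in MC903. All 4 values lay within the range of the bacterial controls, so no fold is given and a transcript was not detectable above background on these arrays. Il17rb, which encodes the IL-25 receptor's specific chain, had signals of 237 and 215 on the vehicle arrays against 168 and 166 on the MC903 arrays. Both MC903 arrays were lower than both vehicle arrays, at 0.699 to 0.780 of them, and the pair was nearly equal. The difference was -0.40 ± 0.16 (SE, n = 2 per group; 95% interval -0.83 to 0.02; limma, adjusted p = 0.341). Il17ra, the shared partner chain, overlapped between groups with 317 and 447 in vehicle and 627 and 419 in MC903.

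**Figure D4:**
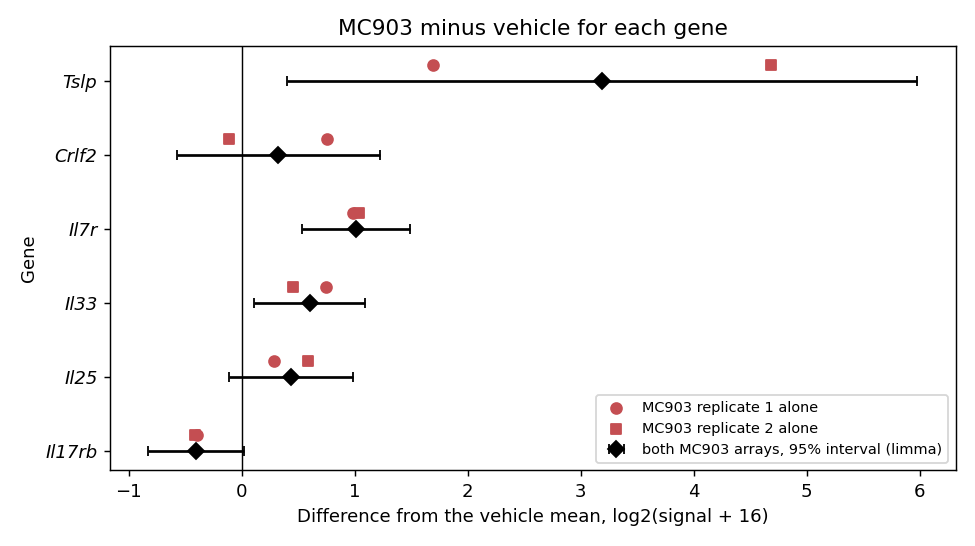
MC903 minus vehicle for the 6 genes on the log2(signal + 16) scale. Black diamonds with bars are the difference and its 95% interval from limma (n = 2 per group), and red points are each MC903 array alone against the vehicle mean. The intervals of Tslp, Il7r and Il33 lie above 0 before any adjustment over genes, and those of Crlf2, Il25 and Il17rb include it.

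Around the receptors, 71 of 81 listed pathway genes were measured. Both MC903 arrays were above both vehicle arrays for 36 of the 71 (21.6% of all genes) and below for 10 (28.2%), and the median difference was 0.30 against -0.04 over all genes. The same shares of all genes, 21.6% higher and 28.2% lower, stand against the counts of each list below. The lists were chosen with earlier results of these data known, so a count above these shares is a description and not a test. Limma called 0 of the 71 over all genes. With the prior that follows the signal, it called 2 higher and 0 lower (0.539% and 0.385% of all genes). At an unadjusted p below 0.05 there were 23 higher genes and 4 lower ones, against 6.82% and 8.39% of all genes.

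Genes of TSLP and IL-7 receptor signalling were mixed, with 7 of 14 higher in both MC903 arrays, 2 lower and 5 overlapping (median 0.50). Of the 7 higher ones, 4 encode feedback inhibitors of JAK-STAT signalling (Cish, Socs1, Socs2 and Socs3), and the others were Jak2, Jak3 and Stat3. Socs3, such an inhibitor, stood at 479 and 719 on the vehicle arrays against 2374 and 1342 on the MC903 arrays (1.58 ± 0.37, SE; limma, adjusted p = 0.229), and its probe set carries a suffix that marks possible cross-hybridisation. Socs2 stood at 443 and 502 on the vehicle arrays against 1280.2 and 721 on the MC903 arrays, a difference of 1.0033 that was 0.37 with its 6 probe sets averaged. Cish, a STAT5 target named here after its values were seen, stood at 528 and 668 on the vehicle arrays against 956 and 1178 on the MC903 arrays. Replicate 2 was the brighter in both groups for Cish, while 10 of the 14 genes were brighter on MC903 replicate 1. The genes of STAT5 itself overlapped between groups, with differences of 0.27 ± 0.23 for Stat5a and -0.19 ± 0.24 for Stat5b (SE).

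Dendritic cell genes known to respond to TSLP were higher in 8 of 9 cases, with 1 overlapping (Tnfsf4, the OX40 ligand) and a median of 1.03. Ccl17, a chemokine that draws type 2 T cells, stood at 230.2 and 201 on the vehicle arrays against 1509 and 610.2 on the MC903 arrays (2.08 ± 0.47, SE; limma, adjusted p = 0.218). Pdcd1lg2, which encodes the checkpoint ligand PD-L2, stood at 81.2 and 69.1 on the vehicle arrays against 547 and 244 on the MC903 arrays (2.07 ± 0.41, SE; limma, adjusted p = 0.200). Both were higher in MC903 replicate 1, the array with less Tslp, as were 6 of the 9. Dendritic cell markers had summed signals of 2373 and 1751 in vehicle and 3513 and 2489 in MC903. Of 7 such markers, 4 were higher in both MC903 arrays, 1 was lower and 2 overlapped. Their median differences on MC903 replicates 1 and 2 were 0.92 and 0.19, beside 1.0047 and 0.86 for the TSLP-responsive list. The markers thus stood near that list on replicate 1 only, and their part in its values was not tested.

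On the IL-33 side, 4 of 9 receptor and signalling genes were higher in both MC903 arrays and 2 lower (median 0.13). Myd88, the adaptor of IL-1 family receptors, stood at 1205 and 1196 on the vehicle arrays against 2380.3 and 1947 on the MC903 arrays (0.83 ± 0.18, SE; limma, adjusted p = 0.211). Sigirr, an inhibitory receptor of the same family, was lower, at 369.6 and 417 in vehicle and 229 and 259.8 in MC903 (-0.65 ± 0.17, SE; limma, adjusted p = 0.247). Il1rap, the co-receptor, differed by -0.07 ± 0.15. Proteases that can cut IL-33 were higher in 2 of 7 cases, near the 21.6% of all genes, and overlapped in 5 (median 0.32). Of the 2 higher, Prtn3 lay wholly within the background. The mast cell tryptase Tpsb2 stood at 1208 and 1065 in vehicle and 1946 and 1382 in MC903. Its difference of 0.53 was 0.04 with its 2 probe sets averaged. Elane, neutrophil elastase, gave 2.29 and 45.4 in vehicle and 12.1 and 59.0 in MC903, on both sides of the background limit in each group.

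For IL-25 signalling, 4 of 7 genes were higher in both MC903 arrays and 3 overlapped (median 0.21). The largest differences belonged to genes that many inflammatory signals induce. Zc3h12a, an RNase that limits cytokine transcripts, stood at 173 and 179 on the vehicle arrays against 397 and 486 on the MC903 arrays (1.25 ± 0.18, SE; limma, adjusted p = 0.159), and Nfkbiz, a nuclear regulator of IL-17 target genes, at 945 and 927 on the vehicle arrays against 1421 and 2258 on the MC903 arrays. Both were brighter in MC903 replicate 2, at 1.22 and 1.59 times replicate 1, against 8.12 times for Tslp. Of the 7 genes, 4 were brighter in replicate 2.

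In the list of keratinocyte inputs to TSLP, 5 of 12 genes were higher, 5 lower and 2 overlapping (median 0.02). The list includes a vitamin D target (Cyp24a1) and a gene whose loss raises TSLP (Notch1). These counts therefore do not measure the drive on TSLP. Cyp24a1, the vitamin D target that degrades the hormone, stood at 12.7, within the background, and 40.8 on the vehicle arrays against 17297 and 10385 on the MC903 arrays, so the array with less Tslp had more Cyp24a1. The protease Klk7 stood at 9271 and 8506 on the vehicle arrays against 20651 and 18693 on the MC903 arrays (1.14 ± 0.16, SE; limma, adjusted p = 0.159). Cyp24a1 and Klk7 were the 2 genes called with the prior that follows the signal (limma, adjusted p = 0.0038 and 0.0272). Vdr itself stood at 1505 and 1753 on the vehicle arrays against 1491 and 1314 on the MC903 arrays. Notch1, whose loss in keratinocytes is known to raise TSLP, stood at 1730.0 and 1800.0 on the vehicle arrays against 856 and 1247 on the MC903 arrays (-0.76 ± 0.24, SE; limma, adjusted p = 0.283). Vdr and Notch1 were named here after their values were seen.

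Genes of group 2 lymphoid cells were higher in 6 of 13 cases, lower in 1 and overlapping in 6 (median 0.22). Ptgdr2, among the 6 higher, and Il5, among the overlapping, lay wholly within the background. Arg1, an arginase of these cells and of alternatively activated macrophages, stood at 366 and 489 on the vehicle arrays against 5124 and 578 on the MC903 arrays, and Il4 at 33.5 and 42.2 in vehicle and 364 and 41.1 in MC903. In both, MC903 replicate 1 held nearly all of the difference, the opposite of Tslp. Macrophage markers moved the same way (summed signals 37119 and 15684 in MC903, 11918 and 10401 in vehicle). Among other lists, so did basophil markers (3104 and 302 in MC903, 43.2 and 40.3 in vehicle) and neutrophil markers (1203 and 405, against 253 and 233). Skeletal muscle and adipocyte markers, among others, were brighter on replicate 2. The part of any of these cells in the Arg1 and Il4 values was not tested.

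**Figure D5:**
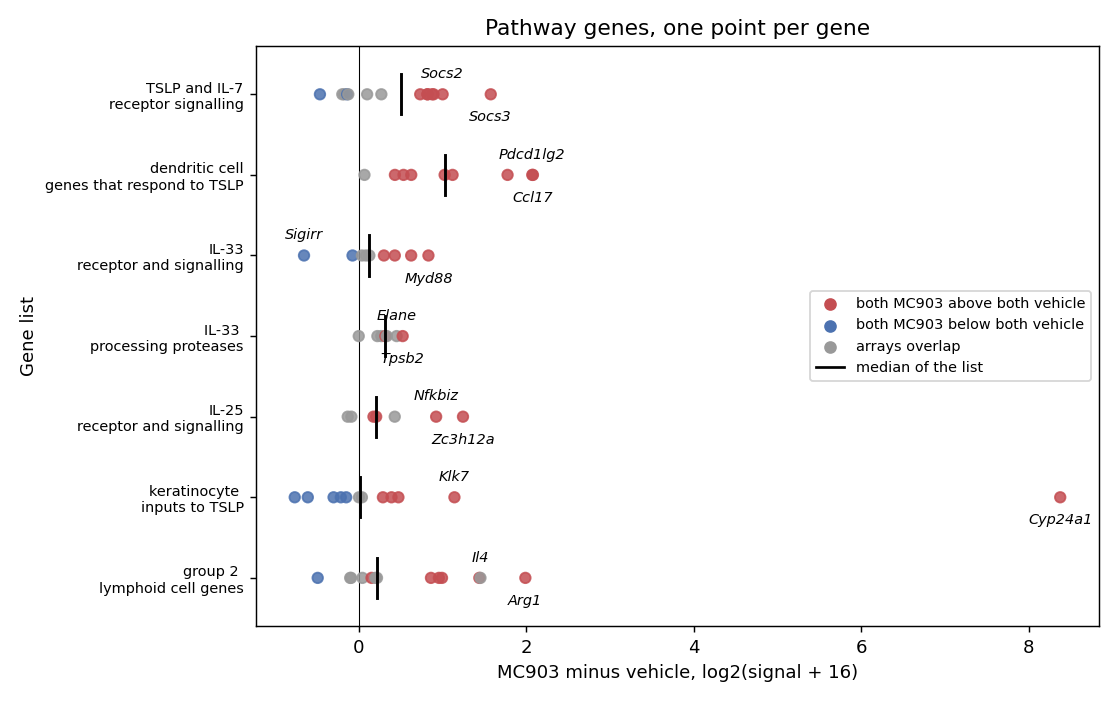
MC903 minus vehicle, log2(signal + 16), for each measured gene of the 7 pathway lists. Red points have both MC903 arrays above both vehicle arrays, blue points both below, grey points overlap, and black bars are list medians, from 0.02 for the keratinocyte inputs to 1.03 for the dendritic cell genes. Cyp24a1 stands alone at 8.38, a size that depends on the added constant (9.13 with 1 and 7.23 with 64), since 1 of its vehicle signals was within the background.

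Patterns over the 4 arrays were compared by the Euclidean distance between centred log2(signal + 16) profiles, among 11787 genes with a mean signal of at least 100. The nearest to Tslp were Cxcl11, an interferon-induced chemokine (distance 1.40), the granzyme gene Gzmc (1.79) and the steroid reductase gene Akr1d1 (1.79). All 3 reached that mean only through the MC903 arrays, so the minimum itself favours genes that are higher there. The nearest, Cxcl11, stood at 48.9 and 31.5 on the vehicle arrays against 148 and 441 on the MC903 arrays. Its difference of 2.30 was 1.27 with its probe sets averaged. For Crlf2 the nearest were Tmem51, Rnf152 and Nek6 (0.04 to 0.07), and for Il7r Otud7a, Nkpd1 and Gbp3 (0.10 to 0.12). For Il33 they were Atf5, Uqcc2 and Zdhhc2 (0.07 to 0.08), and for Il17rb Rev3l, Ccpg1 and Ttc9c (0.03). Profiles were centred but not scaled, so distances grow with the size of a gene's own differences. The larger distances of Tslp therefore do not show that its pattern was rare. A set of 4 arrays cannot separate many patterns, and these distances describe likeness in these arrays only.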

How the data were processed

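Per the labels' protocols, RNA of skin (200 ng a sample) was biotin-labelled and hybridised. For 45101 probe sets and 4 arrays, the authors deposited linear intensity values. For the step from scan to value, software and settings were not given in the sources used here. In the table, each array's mean was 500 after its top and bottom 2% were trimmed.

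Probe sets were named from the platform annotation, with symbols updated through the gene ID to RefSeq (GRCm38.p6). Of the probe sets, 34945 had 1 symbol (34741 matched by ID), 932 had several, 9160 had none and 64 were array controls. Per gene, the probe set brightest by mean log2(signal + 16) was kept, which left 18193 genes. No further normalization or filter was applied. MC903 was compared with vehicle with lmFit and eBayes of limma 3.58.1 under R 4.3.3 (constant prior variance, 2 residual and 2.32 prior degrees of freedom, Benjamini-Hochberg adjustment over all genes, threshold 0.05), which was tested on simulated data.

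The 6 genes, 7 pathway lists and 15 marker lists were chosen with earlier results of these data known. Per pathway list, a rule named up to 4 genes that passed the test. If fewer than 2 did, it named the 2 with the greatest absolute difference. Other list genes in the text, such as Il7, Stat5a, Stat5b, Il1rap and Il17ra, were named outside this rule. For each of the 6 genes with a mean signal of at least 100, the 3 genes nearest in pattern were named too, and Krt5, Krt14, Krt10 and Col1a1 served to check the tissue. Marker lists are described by counts and summed signals. Other settings were 1 or 64 as added constant, array medians as centre, quantile normalization, no genes of the dimmest 25% or 50%, probe sets averaged or tested singly, a prior that follows the signal, the replicate number as block, and each array left out in turn. The choice of probe sets by mean linear signal and the ranking of the gap between MC903 arrays came after seeing the data.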

Additional observations from a re-analysis of the deposited data

How the results depend on the processing

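The direction of Tslp, Il7r, Il33 and Il17rb was the same under each alternative that tested them (Il17rb was too dim for the 50% filter). Il25, within the background, has no direction to be read. Differences ranged from 1.69 to 4.69 for Tslp, 0.88 to 1.15 for Il7r, 0.45 to 0.75 for Il33 and -0.47 to -0.32 for Il17rb. Crlf2 ranged from -0.11 to 0.76 when single arrays were left out and turned without MC903 replicate 1. Its neighbours in pattern Tmem51 (-0.078 to 0.73), Rnf152 (-0.065 to 0.73) and Nek6 (-0.068 to 0.75) turned too. They were picked for their likeness to Crlf2 on these same arrays, so their turning is no separate result. Elane ranged from -0.42 to 1.33, with -0.25 without MC903 replicate 2. Il7r passed the threshold (1.01, limma, adjusted p = 0.0483, range 0.0483 to 0.626) without the dimmest 50% of genes. Over all genes, limma called 0 higher and 0 lower, but 3 higher after centring on array medians, 41 and 29 with 64 added, 22 and 14 without the dimmest 25%, 101 and 89 without the dimmest 50%, 9 and 3 with probe sets averaged, 3 and 2 with probe sets chosen by mean signal (added after seeing the data) and 98 and 70 with the prior that follows the signal. The filters tested fewer genes and also changed the prior. Without the dimmest 25% and 50% it had 2.67 and 3.05 degrees of freedom, against 2.32 in the main fit. The cause of these shifts was not tested. List medians moved to 0.86 (dendritic cell genes) and 0.22 (proteases) with 64 added, 0.29 (IL-25) and 0.10 (keratinocyte inputs) after centring, and 0.69 (group 2 lymphoid genes) with 1 added. With single arrays left out they ranged from 0.22 to 0.56 (TSLP and IL-7), 0.74 to 1.0047 (dendritic cell genes), 0.073 to 0.31 (IL-33), 0.15 to 0.67 (IL-25) and 0.27 to 0.56 (group 2 lymphoid genes). With the replicate block, limma called 0 genes and Tslp differed by 3.19 (adjusted p = 0.345). Arrays of the same number deviated with a correlation of -0.06 over genes, so the numbers were not taken as a pairing. Leaving out 1 array assumes that the lone array varies like the other group, and dim signals such as Il25's limit what can be read.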

Other observations

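Genes of basophils and mast cells, which respond to TSLP and IL-33, differed in how they stood on the MC903 arrays. Mcpt8, a protease of mouse basophils, gave 4.67 and 4.21 on the vehicle arrays, no brighter than the bacterial controls, against 2972 and 257 on the MC903 arrays, the first being the array with less Tslp. Hdc, the histamine-forming enzyme of both cell types, stood at 159.6 and 149 on the vehicle arrays against 1804 and 340.03 on the MC903 arrays. Of 8 mast cell markers, 3 were higher in both MC903 arrays (Tpsb2, Ms4a2 and Hdc), 1 was lower (Kit) and 4 overlapped. Of all genes, 21.6% were higher and 28.2% lower. The mast cell markers had a median difference of 0.41, and 6 of the 8 were brighter on MC903 replicate 1. Mcpt8 and Hdc were named after their values were seen.

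Against Tslp, the genes with the largest excess of MC903 replicate 1 over replicate 2 were Cxcl2, a neutrophil chemokine (3056 and 63.9), Ccl3 (1514 and 75.6), Acod1 (291 and 4.07) and Saa1 (2679 and 168). The next after Tslp in the opposite direction were Ctxn3 (3.25 and 119.6), Cyp2g1 (321 and 2311) and Smtnl1 (5.78 and 115), with 1 MC903 value each of Acod1, Ctxn3 and Smtnl1, both vehicle values of Acod1 and 1 vehicle value of Ccl3 within the background.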
